A study of Mus musculus with 24 samples.

Results

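The genes described here encode the subunits of the 5 complexes of oxidative phosphorylation, the enzymes in the inner mitochondrial membrane that oxidise NADH and succinate and make ATP. A gene was taken when its symbol in a deposited table named a subunit of complex I (Ndufa, Ndufb, Ndufc, Ndufs or Ndufv, without the Ndufaf assembly factors), complex II (Sdha to Sdhd), complex III (Uqcr and Cyc1), complex IV (Cox4 to Cox8) or the ATP synthase (Atp5), or was 1 of the 13 protein-coding genes of mitochondrial DNA. Symbols of pseudogenes were dropped, and the mean over the libraries of a table had to reach 10 TPM (an expression level scaled for transcript length and for the library's total). Of the 22996 genes with a row in the table of bone marrow-derived macrophages (BMDMs, primary macrophages grown from marrow), 93 were taken, 80 of them nuclear and 13 mitochondrial. Of the 54380 genes in the table of J774.1 cells, an established macrophage line from a female BALB/c mouse, 95 were taken, 82 nuclear and 13 mitochondrial. The tables shared 93 of these genes by gene ID. Without the 10 TPM limit 100 symbols met the rule in BMDMs and 107 in J774.1 cells, so 7 and 12 fell under it, among them Cox7a1 at 5.19 TPM in BMDMs and Cox6c2 at 5.82 TPM in J774.1 cells. The members nearest above the limit were Atp5mc2 at 11.2 TPM in BMDMs and Cox4i2 at 10.8 TPM in J774.1 cells.

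The series holds 24 RNA-seq libraries on CTBP1 and CTBP2, paralogous transcriptional co-repressors, in macrophages exposed to the bacterial endotoxin lipopolysaccharide (LPS). BMDMs from male C57BL6/N mice 6 to 12 weeks old carried control siRNA, Ctbp1 siRNA or Ctbp2 siRNA, each with vehicle (PBS) or with LPS at 100 ng/ml for 4 hours, which makes 6 groups. J774.1 cells were either wildtype or carried a Ctbp1 and Ctbp2 double knockout, and both of these groups had LPS. Every group had 3 libraries. The labels do not say whether these came from separate mice or cultures, so the p-values measure the spread between these libraries, which may be technical. They also do not say whether the knockout cells were 1 clone. Knockdown is partial by nature: Ctbp1 fell by 1.25 on the log2 scale with its siRNA in vehicle (limma adjusted p = 8.7e-09) and by 1.25 in LPS (limma adjusted p = 8.4e-09). Ctbp2 differed by -1.49 with its siRNA in vehicle and by -1.59 in LPS (limma adjusted p = 5.7e-08 and 2.1e-08). In the double knockout the log2 difference was -2.96 for Ctbp1 and -0.31 for Ctbp2 (limma adjusted p = 2.2e-07 and 7.2e-04), and Ctbp2 still read 64.1, 61.5 and 63.6 TPM against 81.4, 74.4 and 78.7 TPM in wildtype. A disrupted gene can still be transcribed, so this level alone checks little.

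Complex I passes electrons from NADH to ubiquinone, complex II passes them from succinate, complex III hands them to cytochrome c and complex IV to oxygen. The ATP synthase, complex V, uses the proton gradient that complexes I, III and IV build. Mitochondrial DNA encodes a few core subunits of complexes I, III, IV and V and none of complex II, and all other subunits come from nuclear genes, so each of those 4 complexes is assembled from the products of both genomes. Macrophages activated by LPS are known for a shift towards glycolysis, for accumulation of succinate, which complex II oxidises, and for release of reactive oxygen from the respiratory chain.

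All 9 macrophage markers looked for (among them Csf1r, Cd68 and Adgre1) reached 1 TPM in each of the 6 BMDM groups, and 8 of 9 did so in both J774.1 groups, where Mertk did not. Of 9 neutrophil markers 4 or 5 reached 1 TPM per BMDM group, with a summed level between 60.4 and 167 TPM per library, and this sum was at most 0.742 TPM in J774.1 cells. TPM are fixed to the same total in every library and no counts were used here, so the depth behind a value is unknown. In bulk RNA, fewer cells of a kind and less RNA per cell cannot be told apart.

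Per transcript length, the mitochondrial genes were the more abundant by far. In BMDMs the median nuclear subunit gene stood at 155 TPM and the median mitochondrial gene at 1888 TPM, and in J774.1 cells these medians were 172 and 3216 TPM. The nuclear range in BMDMs ran from Atp5mc2 (11.2 TPM), 1 of 3 genes for the membrane ring subunit c, to Atp5f1b (565 TPM), the catalytic beta subunit of ATP synthase. Complex by complex, the nuclear medians in BMDMs were 99.7 TPM for complex I, 136 for complex II, 188 for complex III, 285 for complex IV and 232 for complex V. The highest nuclear gene was Ndufa6 in complex I (204 TPM), Sdhc in complex II (183 TPM), Uqcrb in complex III (244 TPM) and Cox4i1 in complex IV (503 TPM). In J774.1 cells the same order held for complexes IV and V at the top (medians 436 and 327 TPM), and Atp5f1b was again the highest at 1288 TPM. Among the mitochondrial genes, mt-Co1, the catalytic subunit of complex IV, had the highest mean in BMDMs (13117 TPM) and mt-Nd6 the lowest (187 TPM). In J774.1 cells mt-Atp8, a short gene that overlaps mt-Atp6, was the highest (20090 TPM) and mt-Nd6 again the lowest (108 TPM). The libraries are not stated to keep strand, so reads of mt-Nd6 and of mt-Nd5 on the opposite strand, and reads over the overlap of mt-Atp8 and mt-Atp6, cannot be told apart.

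Summed over the 80 nuclear genes, the level in the 8 groups was as follows. Control siRNA BMDMs stood at 15080 ± 348 TPM (SD, n = 3) with vehicle and 13574 ± 279 TPM with LPS. Ctbp1 siRNA BMDMs stood at 15546 ± 429 TPM with vehicle and 13816 ± 338 TPM with LPS. Ctbp2 siRNA BMDMs stood at 14989 ± 243 TPM with vehicle and 12918 ± 333 TPM with LPS. In each siRNA group every LPS library lay below every vehicle library. This order turned with the scale: after median-of-ratios scaling, explained below, the nuclear sums were 13881 TPM with vehicle and 14442 TPM with LPS for control siRNA, 14359 and 14525 TPM for Ctbp1 siRNA, and 14079 and 14319 TPM for Ctbp2 siRNA. The 82 nuclear genes of J774.1 cells summed to 20649 ± 101 TPM in wildtype and 20925 ± 165 TPM in the double knockout, and these ranges overlapped.

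The 13 mitochondrial genes summed to 49390 ± 1802 TPM (SD, n = 3) in control siRNA BMDMs with vehicle and 43884 ± 1592 TPM with LPS. With Ctbp1 siRNA the sums were 46805 ± 2030 and 44250 ± 406 TPM, and with Ctbp2 siRNA 45049 ± 1137 and 41138 ± 705 TPM. As for the nuclear sum, vehicle and LPS libraries did not overlap in any siRNA group. Scaled, the mitochondrial sums were 45471 and 46676 TPM, 43232 and 46529 TPM, and 42311 and 45588 TPM in the same order, so the LPS mean was the higher in each. Wildtype J774.1 cells had 63770 ± 2066 TPM and double-knockout cells 62765 ± 3140 TPM, with overlap. The log2 ratio of the mitochondrial to the nuclear sum lay between 1.58 and 1.71 in all 8 groups. It was 1.71 ± 0.084 in control siRNA BMDMs with vehicle, 1.59 ± 0.10 with Ctbp1 siRNA and 1.59 ± 0.043 with Ctbp2 siRNA. With LPS it was 1.69 ± 0.046, 1.68 ± 0.048 and 1.67 ± 0.055 in the same order, and in J774.1 cells it was 1.63 ± 0.040 in wildtype and 1.58 ± 0.063 in the double knockout. The 3 control libraries with vehicle lay above the 3 Ctbp2 siRNA libraries with vehicle, and the Ctbp2 siRNA libraries with LPS lay above those with vehicle. For every other pair compared, the ranges of the ratio overlapped. Because mt-Co1 and mt-Atp8 hold most of the mitochondrial sum in BMDMs, the other mitochondrial genes were also summed without them. For those, control siRNA BMDMs with vehicle had 21503 ± 711 TPM against 18660 ± 353 TPM with Ctbp1 siRNA and 19446 ± 585 TPM with Ctbp2 siRNA, and neither overlapped the control.

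**Figure D1:**
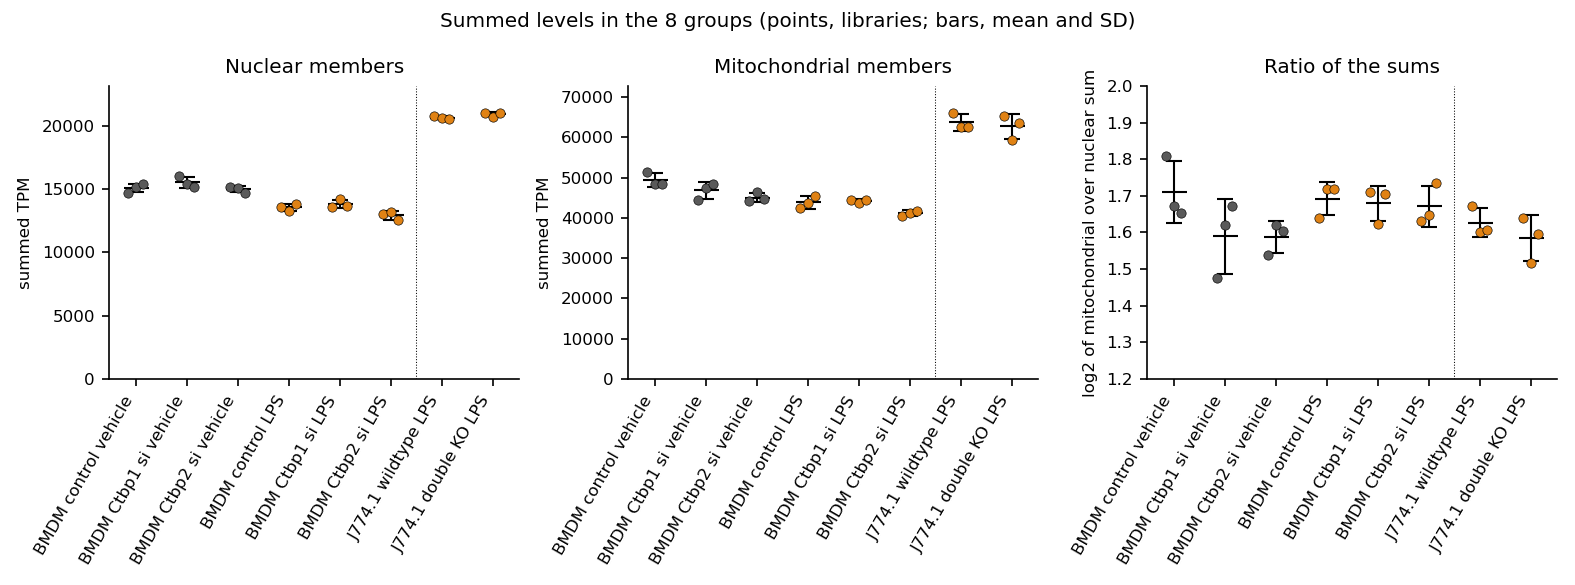
Summed TPM of the nuclear members and of the mitochondrial members, and the log2 ratio of these sums, in the 8 groups; points are libraries and bars are the mean and SD of 3 libraries. As deposited, both sums were lower with LPS than with vehicle in each siRNA group, an order that scaling turned, and the ratio stayed between 1.58 and 1.71 as a group mean.

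The LPS comparison asks how the genes responded to endotoxin within each siRNA group. As deposited, most nuclear subunit genes read lower with LPS, but so did most genes of the table. In control siRNA cells 54 of 80 nuclear members were lower and 1 was higher, where 53.1% of all 7918 genes tested were lower and 23.3% higher (limma on log2(TPM + 1), adjusted p under 0.05). With Ctbp1 siRNA 56 were lower and 0 higher (background 50.9% and 24.5%). At an unadjusted p under 0.05 59 of these 80 passed, beside 6086 of all 7918 genes. With Ctbp2 siRNA 62 were lower and 1 higher (background 55.2% and 23.5%). The median log2 difference of the nuclear members was -0.19, -0.20 and -0.24 in the 3 siRNA groups, and that of all genes tested was -0.21, -0.19 and -0.23. The 3 LPS comparisons share no libraries. By overlap, 51, 55 and 62 of the 80 nuclear members had every LPS library below every vehicle library (background 53.5%, 52.7% and 55.9%). Some marker sums of other cell types moved with LPS too. That of 6 stromal markers was at most 0.447 TPM in a vehicle library and between 4.19 and 7.67 TPM with LPS, where 1 of the 6 reached 1 TPM. That of 5 dendritic cell markers was between 113 and 139 TPM with vehicle and between 123 and 172 TPM with LPS. Of these 5 markers 1 or 2 reached 1 TPM, and with Ctbp1 siRNA the ranges overlapped (113 to 124 and 123 to 169 TPM). Neutrophil marker sums overlapped between vehicle and LPS in each siRNA group. Lymphocyte and mast cell marker sums were at most 0.461 and 1.07 TPM in a BMDM library. The part of these lists in the results was not tested.

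TPM divides each gene by the library's total, so strongly induced genes lower the share left for the rest. Median-of-ratios scaling instead sets the median gene of each library to the same level. After it 22 nuclear members were higher and 12 lower with LPS in control siRNA cells (background 36% and 35.7%), 16 and 17 with Ctbp1 siRNA (35.8% and 35.8%), and 14 and 17 with Ctbp2 siRNA (36.7% and 36.5%). In the authors' deposited table, whose fold changes come from counts, 36 of 80 nuclear members were higher and 2 lower with LPS in control siRNA cells (background 25.8% and 24.3%). With Ctbp1 siRNA 29 and 2 were so in the authors' deposited table (26.3% and 24.4%), and 33 and 3 with Ctbp2 siRNA (26.3% and 25%). The scaling moved the median gene from -0.21, -0.19 and -0.23 to -0.0073, -0.0049 and -3.8e-04 by shifting all genes of a library alike, and the median nuclear member to 0.02, -0.01 and -0.01, so the number of members called in each direction depended on the scale. Scaled values or calls of the members named are given beside those as deposited. Called lower as deposited in all 3 siRNA groups were 44 nuclear members, and 8 of these were also called lower after scaling in all 3: Ndufa6, Ndufa8, Ndufb11, Ndufs3, Sdhb, Sdhd, Cox7a2l and Atp5f1c. Of the 8, Ndufa6 and Sdhb were also called lower in the authors' deposited table in all 3. In the other direction 9 nuclear members were called higher after scaling in all 3 siRNA groups, and all 9 were called higher in the authors' deposited table, among them Ndufb1, Uqcrb, Uqcrfs1, Cox5a, Atp5f1a, Atp5f1b, Atp5mk and Atp5po. These lists were drawn after the values were seen.

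**Figure D2:**
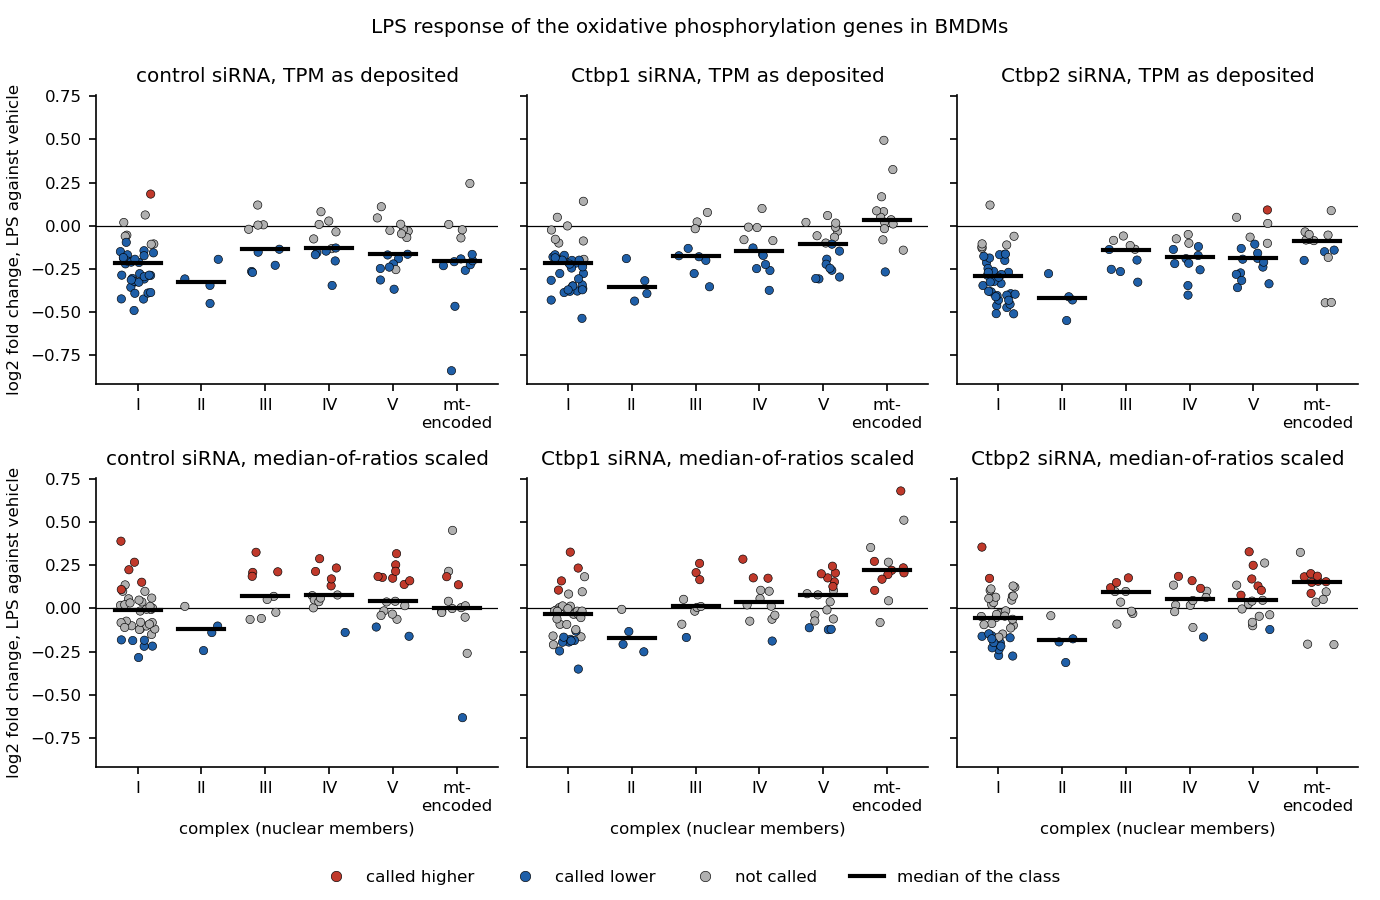
Log2 difference with LPS of each nuclear member, by complex, and of the mitochondrial genes in the 3 siRNA groups, on the log2(TPM + 1) scale; points are genes, red and blue mark calls, and the bar is the median of each class. The upper row is TPM as deposited and the lower row is after scaling: all 4 complex II genes lie below 0 in each upper panel, and the other classes spread to both sides of 0 in the lower row.

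The complexes did not stand at the same place relative to that median. Complex II, whose 4 genes are all nuclear, was the lowest: its median log2 difference was -0.33, -0.36 and -0.42 in the 3 siRNA groups, and all 4 genes were called lower in each. Its summed level with LPS was 80.2%, 78.4% and 74.3% of that with vehicle. After scaling 3 of its 4 genes were still lower in each siRNA group and 0 higher. The nuclear genes of complex I had medians of -0.22, -0.22 and -0.29, with 31, 30 and 32 of 38 called lower, and summed levels at 85.3%, 85.3% and 81.7%. For complex III the medians were -0.14, -0.18 and -0.14 (5, 6 and 5 of 9 lower), and the sums 91.2%, 89.4% and 87.5%. Complex IV had medians of -0.13, -0.15 and -0.18 (6, 7 and 9 of 12 lower) and sums at 92.8%, 90.6% and 88.0%. Complex V had medians of -0.17, -0.11 and -0.19 (8, 9 and 12 of 17 lower) and sums at 93.2%, 92.1% and 90.3%. Scaled, complex I counted 5 genes higher and 6 lower in control siRNA cells, complex III 4 and 0, complex IV 5 and 1 and complex V 8 and 2. Whether the complexes differ from one another was not tested.

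In complex I the nuclear gene with the largest fall in control siRNA cells was Ndufa6, an accessory subunit of the matrix arm, whose gene ID in the tables is ENSMUSG00000022450. It read 240.2, 241 and 232 TPM with vehicle and 163, 167 and 176 TPM with LPS, a log2 difference of -0.49 ± 0.053 (SE; limma adjusted p = 2.3e-07). With Ctbp1 siRNA it read 238, 235 and 238 TPM and 174, 164 and 151 TPM, and with Ctbp2 siRNA 250.3, 259.6 and 228 TPM and 165, 178 and 174 TPM. All 9 LPS libraries lay below all 9 vehicle libraries. The scaled differences were -0.28, -0.35 and -0.27, and those in the authors' deposited table -0.17, -0.24 and -0.16.

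Ndufb11, an accessory subunit of the membrane arm, read 96.0, 98.6 and 93.4 TPM with vehicle and 72.2, 69.8 and 71.5 TPM with LPS in control siRNA cells (-0.43 ± 0.039 (SE; limma adjusted p = 3.1e-08) on the log2 scale). Its neighbour in that arm Ndufb10 read 104, 115 and 111 and then 80.9, 78.5 and 85.5 TPM (-0.43 ± 0.056 (SE; limma adjusted p = 2.4e-06)). Neither gene's vehicle and LPS libraries overlapped. Ndufb10 was not called after scaling with Ctbp1 siRNA (-0.09), whereas Ndufb11 was called on both scales in all 3 siRNA groups. Ndufs3, a core subunit of the hydrophilic arm, differed by -0.39, -0.37 and -0.43 in the 3 siRNA groups and after scaling by -0.18, -0.19 and -0.20. Ndufa8, an accessory subunit with cysteine motifs that is oxidised in the intermembrane space, differed by -0.39, -0.32 and -0.40, and after scaling by -0.19, -0.13 and -0.16. Ndufs7, the core subunit that carries the last iron-sulfur cluster before ubiquinone, differed by -0.33 with control, -0.43 with Ctbp1 and -0.51 with Ctbp2 siRNA, each called. After scaling it was -0.12, -0.25 and -0.28, and the first of these was no longer called (limma adjusted p = 0.074). Its interaction with Ctbp1 siRNA (-0.10) and with Ctbp2 siRNA (-0.18) did not pass (limma adjusted p = 0.94 and 0.67).

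At the electron-input end, the core genes Ndufs1, Ndufv1 and Ndufv2 were called lower as deposited only. Ndufs1, the largest iron-sulfur subunit, differed by -0.29, -0.17 and -0.17, and Ndufv1, which binds NADH, by -0.32, -0.20 and -0.33, with all 6 values called as deposited and 0 of them after scaling. Ndufv2 differed by -0.17, -0.19 and -0.18, each called as deposited and none after scaling. Ndufb1, a small membrane-arm subunit, was the only nuclear member called higher as deposited in control siRNA cells. It read 104, 113 and 125 TPM with vehicle and 137, 129.5 and 122 TPM with LPS (0.18 ± 0.066 (SE; limma adjusted p = 0.019)), and 1 LPS library lay among the vehicle libraries. Without control vehicle replicate 1 the difference was 0.12 and without control LPS replicate 1 it was 0.14, neither called (limma adjusted p = 0.12 and 0.087). After scaling it was higher in all 3 groups (0.39, 0.33 and 0.36). Ndufb4, the lowest complex I member, and its near-identical copy Ndufb4c can exchange reads, so the -0.39 of Ndufb4 with Ctbp1 siRNA, among the 5 largest falls there, is uncertain, and after scaling it was -0.21 with no call.

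In complex II, Sdhb (ENSMUSG00000009863) carries the iron-sulfur clusters that link the flavin to ubiquinone. It read 166, 170.0 and 167 TPM with vehicle and 121, 116 and 129 TPM with LPS in control siRNA cells, 171, 166 and 167 and 131, 131 and 121 TPM with Ctbp1 siRNA, and 176, 173 and 172 and 117, 119 and 118 TPM with Ctbp2 siRNA. All 9 LPS libraries were below all 9 vehicle libraries. The log2 differences were -0.45 ± 0.040 (SE; limma adjusted p = 2.0e-08), -0.39 ± 0.040 (SE; limma adjusted p = 1.2e-07) and -0.55 ± 0.040 (SE; limma adjusted p = 1.4e-09). Scaled they were -0.24, -0.21 and -0.31, and in the authors' deposited table -0.13, -0.10 and -0.20. Sdhd, a membrane anchor, differed by -0.35, -0.32 and -0.41 and was called on both TPM scales in all 3 groups. In the authors' deposited table Sdhd was not called lower with control or Ctbp1 siRNA. Sdhc, the other anchor, differed by -0.20 with control siRNA and by -0.44 and -0.43 with Ctbp1 and Ctbp2 siRNA, each called. After scaling it was 0.01 with control siRNA, with no call, and -0.25 and -0.19 in the knockdowns, both called. Sdha, the flavoprotein that oxidises succinate, differed by -0.31, -0.19 and -0.28, and only the first of these was called after scaling (-0.10).

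In complex III the largest nuclear fall in control siRNA cells was that of Uqcrh, the hinge protein (-0.27 ± 0.054 (SE; limma adjusted p = 2.1e-04)), from 263, 259 and 289 TPM to 228, 226 and 217 TPM; after scaling it was -0.06 and was not called. Uqcr11, a small subunit, differed by -0.27, -0.28 and -0.33, and Uqcr10, another, by -0.23, -0.35 and -0.27. Scaled, these were -0.06, -0.09 and -0.09 for Uqcr11 and -0.02, -0.17 and -0.03 for Uqcr10, of which only Uqcr10 with Ctbp1 siRNA was called. The catalytic genes stood higher in the set. Uqcrfs1, the Rieske iron-sulfur protein, read 79.9, 76.2 and 76.2 TPM with vehicle and 76.6, 75.1 and 81.2 TPM with LPS, a log2 difference of 0.00 ± 0.058 (SE; limma adjusted p = 0.97), and after scaling it was higher at 0.21, 0.17 and 0.15. Cyc1, cytochrome c1, read 82.1, 84.5 and 83.5 TPM and 91.6, 82.5 and 98.6 TPM. Its log2 differences as deposited (0.12, 0.08 and -0.14) were not called in any group, and after scaling it was called higher in the first 2 (0.33 and 0.26) and not in the Ctbp2 siRNA cells (0.10).

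Among the nuclear genes of complex IV the largest fall in every siRNA group was that of Cox7a2l, a supercomplex assembly factor related to the Cox7a subunits. It read 291, 275 and 279.5 TPM with vehicle and 222, 219 and 223 TPM with LPS in control siRNA cells. The differences were -0.35, -0.38 and -0.40 as deposited and -0.14, -0.19 and -0.17 scaled. Cox4i1, the common isoform of the largest nuclear subunit, differed by -0.21, -0.17 and -0.22, close to the median gene, and was not called after scaling in any group. Cox5a, a matrix-side subunit, read 245, 243 and 241 TPM and 248, 243 and 241 TPM; as deposited the difference was 0.01 and was not called, and scaled it was 0.21, 0.18 and 0.19. Cox6a1, Cox6b1, Cox7a2 and Cox8a, the common isoforms of their subunits, lay between -0.25 and 0.03 as deposited in all 3 groups and between -0.06 and 0.23 after scaling.

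In complex V the largest nuclear fall in control siRNA cells was that of Atp5f1c, the gamma subunit that forms the rotating stalk, from 218, 219 and 225 TPM to 174, 168 and 169.7 TPM (-0.37 ± 0.033 (SE; limma adjusted p = 2.0e-08)). It was called lower on both TPM scales in all 3 siRNA groups (-0.16, -0.11 and -0.12 after scaling). The catalytic head genes stood apart from it. Atp5f1b, the beta subunit, read 572, 554 and 552 TPM with vehicle and 574, 571 and 586 TPM with LPS in control siRNA cells (0.04 ± 0.035 (SE; limma adjusted p = 0.26)) and 519.6, 529 and 537 and 559, 562 and 568 TPM with Ctbp2 siRNA (0.09 ± 0.035 (SE; limma adjusted p = 0.027)). Only the latter was called as deposited, and that call did not hold when vehicle replicate 1, vehicle replicate 3, LPS replicate 3 or LPS replicate 4 of those cells was left out (limma adjusted p = 0.091, 0.053, 0.052 and 0.069). After scaling the beta subunit was higher in all 3 (0.25, 0.21 and 0.33). Atp5f1a, the alpha subunit, differed by -0.03, -0.03 and -0.07 as deposited, with no call, and by 0.18, 0.15 and 0.17 after scaling. Gamma was thus below, and alpha and beta above, the median gene. With Ctbp1 siRNA the largest nuclear fall in the complex was that of Atp5f1d, the delta subunit of the central stalk (-0.31; -0.12 after scaling, called on both). Atp5if1, the inhibitor of the reverse reaction, is listed in the BMDM table under an older symbol outside the rule and is no member there; it differed by -0.28, -0.36 and -0.44, each called.

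The promoters of Ndufa8 and Ndufs3, from the 8 genes lower with LPS on both TPM scales, and of Atp5f1b, from the 9 genes higher after scaling, are shown to let their sequences be compared. Each is the 250 bases before the gene's annotated start from RefSeq (build GRCm38.p6), read 5′ to 3′ along the gene: Ndufa8 at chr2:36049339-36049588 (minus strand), Ndufs3 at chr2:90904722-90904971 (minus strand) and Atp5f1b at chr10:128083057-128083306 (plus strand). Capitals mark a match, on either strand, to the motif of nuclear respiratory factor 1 (NRF1), a transcription factor known for respiratory chain genes, or to the ETS motif CCGGAAG, of the kind bound by GABP.
Ndufa8: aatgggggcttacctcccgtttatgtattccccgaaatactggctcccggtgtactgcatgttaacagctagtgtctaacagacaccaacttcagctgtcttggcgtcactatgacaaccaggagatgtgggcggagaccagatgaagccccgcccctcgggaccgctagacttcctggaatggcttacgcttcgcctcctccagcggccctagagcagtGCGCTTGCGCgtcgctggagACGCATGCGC
Ndufs3: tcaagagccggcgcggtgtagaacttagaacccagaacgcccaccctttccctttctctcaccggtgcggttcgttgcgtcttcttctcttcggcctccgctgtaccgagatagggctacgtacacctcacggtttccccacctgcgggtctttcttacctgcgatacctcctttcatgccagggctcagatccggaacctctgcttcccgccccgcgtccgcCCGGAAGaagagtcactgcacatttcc
Atp5f1b: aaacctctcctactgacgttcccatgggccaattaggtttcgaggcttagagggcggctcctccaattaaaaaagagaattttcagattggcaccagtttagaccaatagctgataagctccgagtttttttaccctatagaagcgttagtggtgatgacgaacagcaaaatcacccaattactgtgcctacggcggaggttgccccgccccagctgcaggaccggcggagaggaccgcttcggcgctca
The window of Ndufa8 holds 2 NRF1 matches, that of Ndufs3 holds 1 ETS match, and that of Atp5f1b holds neither. A window was found for 66 of the 82 nuclear genes. An NRF1 match was present in at least 1 window of 17 of these genes (25.8%), against 1710 of the 32851 windows in the RefSeq table (5.21%). By window the share was 18 of 71 (25.4%). An ETS match was present for 12 of the 66 genes (18.2%), against 6.91% of all windows. A match to the motif of NF-kB, the main factor that LPS activates, was present for 0 of 66, against 1.08% of all windows. The NRF1 and NF-kB motifs have ambiguous letters and are given by name, and both strands were searched. Of the 8 genes lower on both scales 3 had an NRF1 match and 2 an ETS match, while 4 had neither (Ndufa6, Ndufb11, Sdhb and Cox7a2l), and of the 6 genes with a window among the 9 higher ones 0 had either. Of the 38 genes with a window among the 44 lower as deposited, 14 had at least 1 of these 2 motifs (36.8%), as did 24 of all 66 (36.4%). Some genes have more than 1 window, and a match is a description of these letters, not evidence of binding.

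Complex IV also has an exchangeable subunit. Ndufa4, once assigned to complex I, is a complex IV subunit whose place is taken in inflamed cells by NMES1, the product of AA467197, which is no member by symbol. Ndufa4 read 282, 297 and 285 TPM with vehicle and 271, 243 and 276 TPM with LPS in control siRNA cells (-0.13 ± 0.050 (SE; limma adjusted p = 0.026)), and differed by -0.23 and -0.26 with Ctbp1 and Ctbp2 siRNA. After scaling Ndufa4 was not called in any of the 3 (0.08, -0.04 and -0.02). AA467197 read 4.24, 6.19 and 4.81 TPM with vehicle and 44.0, 52.6 and 21.7 TPM with LPS (2.65 ± 0.30 (SE; limma adjusted p = 9.0e-07)), and rose by 2.67 and 3.27 in the knockdowns. Every LPS library was above every vehicle library. Ndufa4 remained the higher of the pair per transcript length in every BMDM library, and AA467197 was listed at 0 in all 6 J774.1 libraries, where Ndufa4 read 445, 435 and 441 TPM in wildtype.

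**Figure D3:**
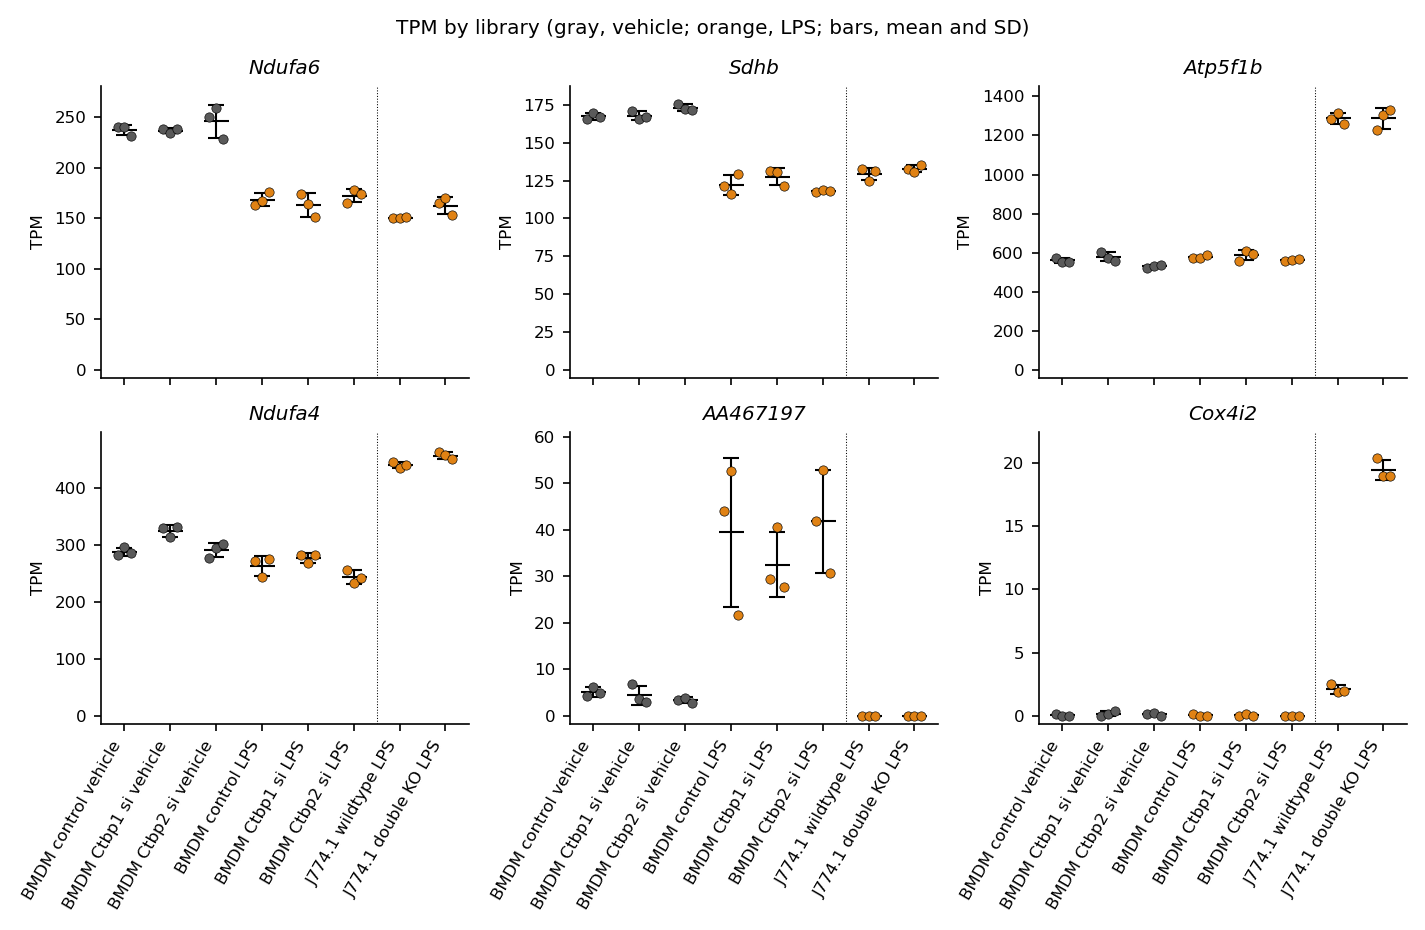
TPM per library of Ndufa6, Sdhb, Atp5f1b, Ndufa4, AA467197 and Cox4i2 in the 8 groups; points are libraries and bars are the mean and SD of 3. Ndufa6 and Sdhb are lower in every LPS library of the BMDMs, AA467197 is higher in each, and Cox4i2 is seen in the J774.1 double knockout.

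The mitochondrial genes read lower with LPS in control siRNA cells as deposited, with 9 of 13 called lower and 0 higher. In the knockdowns 1 of 13 was lower with Ctbp1 siRNA, mt-Atp8, and 3 of 13 with Ctbp2 siRNA, mt-Atp8, mt-Co1 and mt-Nd3, and 0 were higher in either. Of all genes 53.1%, 50.9% and 55.2% were lower in the 3 comparisons. The medians were -0.20, 0.03 and -0.09. After scaling 2 of 13 were higher and 1 lower with control siRNA (background 36% and 35.7%), 8 and 0 with Ctbp1 siRNA (35.8% and 35.8%) and 7 and 0 with Ctbp2 siRNA (36.7% and 36.5%). Higher in the authors' deposited table were 7, 8 and 8 (background 25.8%, 26.3% and 26.3%), and lower 0 (24.3%, 24.4% and 25%). Members differed in this. In complex I, mt-Nd1, a core membrane subunit, read 3651, 3490.2 and 3474 TPM with vehicle and 2949, 3043 and 3192 TPM with LPS in control siRNA cells (-0.21 ± 0.037 (SE; limma adjusted p = 6.2e-05)). With Ctbp1 siRNA it read 3033, 3168 and 3212 and 3195, 3212 and 3227 TPM (0.03 ± 0.037 (SE; limma adjusted p = 0.41)). Scaled, it was 0.00 with control siRNA, with no call, and 0.22 and 0.16 in the knockdowns, both called higher. As deposited, the 3 control libraries with vehicle lay above every other BMDM library. mt-Nd2, mt-Nd4 and mt-Nd5, the proton-pumping core subunits, differed by -0.20, -0.19 and -0.17 with control siRNA, each called, and by 0.02, 0.01 and -0.02 with Ctbp1 siRNA, with no call. Scaled, these were 0.00, 0.02 and 0.04 with control siRNA, with no call, and 0.21, 0.20 and 0.17 with Ctbp1 siRNA, each called higher. mt-Nd4l, a small core subunit, differed by -0.23 with control siRNA, called as deposited and not after scaling (-0.02). mt-Nd3, another core subunit, differed by -0.02 and -0.14 with control and Ctbp1 siRNA, with no call, and by -0.20 with Ctbp2 siRNA, which was called. Scaled it was 0.18, 0.04 and 0.04, of which the first was called higher. mt-Atp8, a subunit of the ATP synthase membrane part, differed by -0.07 with control siRNA, with no call, and by -0.27 and -0.14 in the knockdowns, both called. Scaled it was 0.14, -0.08 and 0.10, of which the first was called higher. With Ctbp2 siRNA the call of mt-Nd3 was lost without vehicle replicate 1 or LPS replicate 4 (limma adjusted p = 0.069 and 0.051), and that of mt-Atp8 without vehicle replicate 1 or 3 or LPS replicate 3 or 4 (limma adjusted p up to 0.12).

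mt-Co1, the catalytic core of complex IV, read 15175, 14496 and 14503 TPM with vehicle and 11636, 12169 and 13127 TPM with LPS in control siRNA cells (-0.26 ± 0.044 (SE; limma adjusted p = 4.2e-05)). It differed by -0.08 with Ctbp1 siRNA, with no call, and by -0.15 with Ctbp2 siRNA, which was called. Scaled it was -0.05 with control siRNA, with no call, and 0.10 and 0.09 in the knockdowns, both called higher. mt-Co2, which carries the copper centre that takes electrons from cytochrome c, varied far more between libraries. It read 507, 573 and 579 TPM and 381, 283 and 269 TPM with control siRNA (-0.84 ± 0.25 (SE; limma adjusted p = 0.0077)), and 522, 289 and 386 TPM and 506, 716 and 451 TPM with Ctbp1 siRNA (0.49 ± 0.25 (SE; limma adjusted p = 0.089)). Scaled these were -0.63 and 0.68, called lower and higher. The difference between these 2 responses was 1.32 after scaling and was not called (limma adjusted p = 0.37). With Ctbp1 siRNA the vehicle and LPS libraries overlapped. There the difference as deposited ran from 0.28 to 0.71 with 1 library left out. Its median coefficient of variation over the BMDM groups was 22.3%, against 4.68% for the median mitochondrial gene. mt-Atp6 (20.9%) and mt-Co3 (14.1%), core subunits of the ATP synthase and of complex IV, were also variable, and neither was called in any BMDM comparison.

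The siRNA comparisons ask whether CTBP loss alone moved these genes; the Ctbp1 and Ctbp2 comparisons share the control libraries. With vehicle, 0 of the 80 nuclear members were called with Ctbp1 siRNA and 0 with Ctbp2 siRNA, where 0.215% and 1.02% of all genes were called (limma). At an unadjusted p under 0.05 11 and 7 of the 80 passed, beside 811 and 1052 of all 7918 genes. With Ctbp1 siRNA 5 nuclear members were higher in the authors' deposited table (background 1.11%): Ndufa4, Sdhc, Cox5b, Cox6a1 and Atp5f1d. With Ctbp2 siRNA 1 was lower in the authors' deposited table, Ndufs1 (background 0.817%). With LPS, Ctbp1 siRNA called 0 members, nuclear or mitochondrial (0.152% of all genes). At an unadjusted p under 0.05 4 nuclear and 1 mitochondrial gene passed, beside 635 of all 7918 genes. With LPS, Ctbp2 siRNA called 2 of 80 nuclear members lower and 0 higher (background 2.4% and 0.77%). These were Ndufa13, a complex I subunit also known as GRIM-19, at 97.3, 93.5 and 105 TPM with control and 82.9, 87.1 and 86.2 TPM with Ctbp2 siRNA (-0.20 ± 0.048 (SE; limma adjusted p = 0.03)), and Atp5po, the peripheral stalk subunit OSCP, at 159, 162 and 167 and 137, 145 and 144 TPM (-0.19 ± 0.036 (SE; limma adjusted p = 0.0092)). Neither gene's groups overlapped, but the share of all genes without overlap in this comparison is not given here. After scaling only Atp5po was called (-0.13, against -0.15 for Ndufa13). The authors' deposited table called neither (log2 fold changes -0.13 and -0.12). The call of Ndufa13 was lost without Ctbp2 siRNA replicate 1, 3 or 4 or control replicate 4 (limma adjusted p = 0.12, 0.058, 0.058 and 0.11). Summed by complex, Ctbp2 siRNA with LPS stood at 94.7% of control for complex I, 92.9% for complex II, 95.5% for complex IV and 95.5% for complex V, each without overlap, and at 95.4% for complex III, with overlap. After scaling the nuclear sum was 14319 TPM with Ctbp2 siRNA and 14442 TPM with control siRNA. In this comparison the 3 same-numbered pairs of libraries deviated together (correlations 0.103, 0.111 and 0.191), and with the replicate number as a block 4 nuclear members were lower, Cyc1 (-0.26) and Atp5mf (-0.19), a membrane-part subunit of the ATP synthase, being added (limma adjusted p = 0.048 for both). The share of all genes called with the block is not given here, so the rise to 4 cannot be read as particular to these members. The median of all genes tested was -0.05 on the log2 scale in that comparison, and of the nuclear members -0.07.

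Among the mitochondrial genes, mt-Cytb (ENSMUSG00000064370), the cytochrome b of complex III, was lower with vehicle in both knockdowns. It read 3458, 3262 and 3191 TPM with control siRNA, 2675, 2849 and 2927 TPM with Ctbp1 siRNA and 2811, 2895 and 2820.0 TPM with Ctbp2 siRNA. The 3 control libraries lay above every other BMDM library, with LPS or without. The log2 differences were -0.23 ± 0.040 (SE; limma adjusted p = 0.029) and -0.22 ± 0.040 (SE; limma adjusted p = 0.016). With Ctbp1 siRNA it was the only member called (1 of 13 lower, background 0.164%). With Ctbp2 siRNA mt-Nd4l was called too (-0.24 ± 0.054 (SE; limma adjusted p = 0.041)), at 3429.5, 3090.4 and 3078 TPM against 2763, 2784 and 2563 TPM (2 of 13 lower, background 0.518%). Single libraries decided these calls. With Ctbp1 siRNA that of mt-Cytb was lost without control replicate 1, Ctbp1 siRNA replicate 1 or Ctbp1 siRNA replicate 3 (limma adjusted p = 0.13, 0.14 and 0.097). With Ctbp2 siRNA it was lost without control replicate 1, Ctbp2 siRNA replicate 1 or Ctbp2 siRNA replicate 4 (limma adjusted p = 0.091, 0.08 and 0.067). That of mt-Nd4l was lost without any 1 of the 6 libraries compared, with a log2 difference of -0.19 without the first (limma adjusted p = 0.17). After scaling mt-Cytb stood at -0.23 and -0.19. The number of mitochondrial genes called lower after scaling was 2 with Ctbp1 siRNA and 1 with Ctbp2 siRNA (background 0.227% and 0.366%). With the replicate number as a block mt-Nd1 and mt-Cytb were lower with Ctbp1 siRNA, and mt-Nd1, mt-Co1, mt-Cytb and mt-Nd4l with Ctbp2 siRNA. The share of all genes called in that blocked fit is not given here.

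As a group the mitochondrial genes read below control with vehicle: the median log2 difference was -0.17 with Ctbp1 siRNA and -0.14 with Ctbp2 siRNA, beside 0.00 and -0.03 for all genes. At an unadjusted p under 0.05 7 of 13 passed in each, beside 811 and 1052 of all 7918 genes. Every library of the knockdown was below every control library for 9 of 13 genes with Ctbp1 siRNA and 8 of 13 with Ctbp2 siRNA (background 10.1% and 16.3%). The 13 genes were read in the same libraries, so these counts are not of independent observations. With each siRNA 4 of 13 were lower in the authors' deposited table (background 0.609% and 0.817%): mt-Nd1, mt-Nd2, mt-Nd4l and mt-Cytb with Ctbp1 siRNA, and mt-Nd1, mt-Nd4l, mt-Co1 and mt-Cytb with Ctbp2 siRNA. Both comparisons rest on the same 3 control libraries, and 1 of these had the highest mitochondrial share of all BMDM libraries (5.15% of all TPM, against 4.04% to 4.84% in the other 17). With LPS the medians were 0.06 and -0.05, and 0 of 13 were called in either knockdown (limma). At an unadjusted p under 0.05 1 and 2 of 13 passed, beside 635 and 1571 of all 7918 genes.

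**Figure D4:**
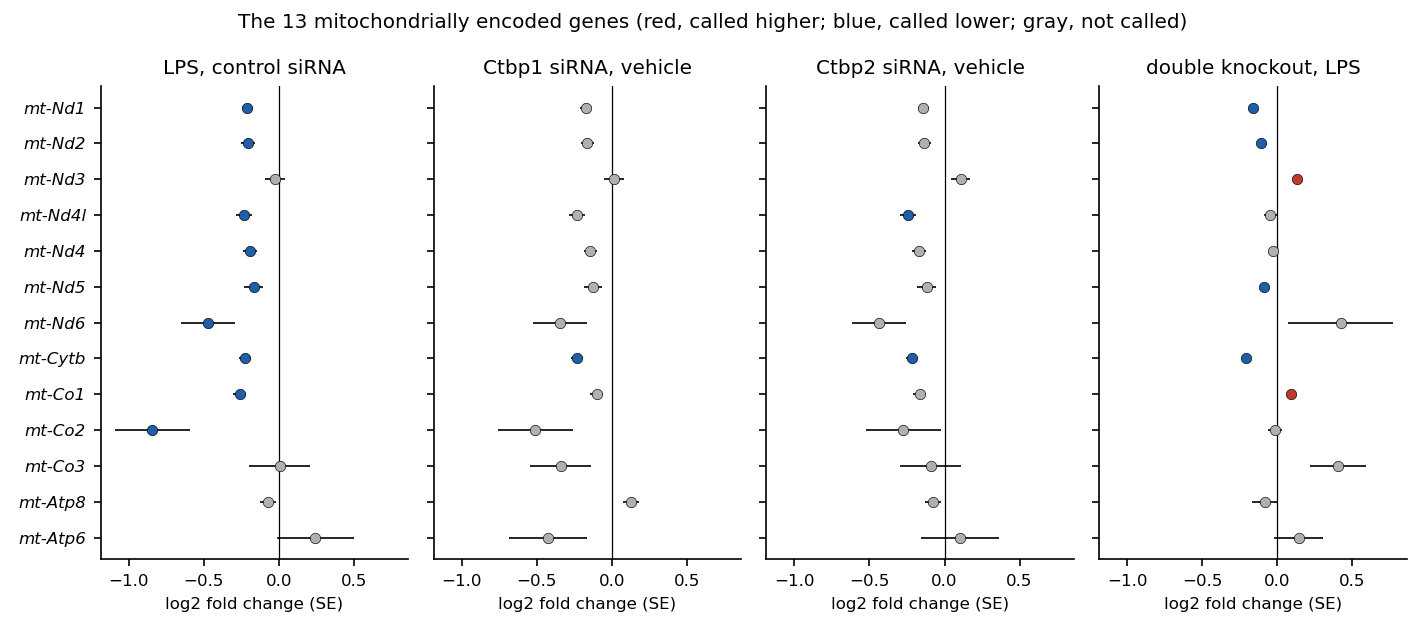
Log2 difference of each of the 13 mitochondrial genes, with its standard error, on the log2(TPM + 1) scale in 4 comparisons: LPS in control siRNA BMDMs, Ctbp1 siRNA and Ctbp2 siRNA with vehicle, and the double knockout. mt-Cytb lies below 0 in all 4, and mt-Co2, mt-Co3, mt-Atp6 and mt-Nd6 have the widest errors.

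The interaction terms ask whether the LPS response differed between siRNA groups. Of the 93 members 0 were called by limma for Ctbp1 siRNA and 0 for Ctbp2 siRNA (background 0.0126% and 0.101%). An unadjusted p under 0.05 was found for 18 and 13 members, of which 9 and 4 were mitochondrial, beside 520 and 654 of all 7918 genes. The median interaction of the mitochondrial genes was 0.20 with Ctbp1 siRNA and 0.12 with Ctbp2 siRNA, beside 0.02 and -0.02 for all genes, and that of the nuclear genes was -0.02 and -0.06. These terms rest in part on the vehicle libraries named above. For mt-Cytb the interaction was 0.28 ± 0.057 (SE; limma adjusted p = 0.14) with Ctbp1 siRNA and 0.14 ± 0.057 (SE; limma adjusted p = 0.5) with Ctbp2 siRNA.

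In J774.1 cells with LPS the double knockout was compared with wildtype, and the nuclear members were near the middle of the table. Of 82 nuclear members 17 were higher and 4 lower, in a table where 25.4% of all 7782 genes tested were higher and 16.6% lower. The median log2 difference was 0.03 both for these members and for all genes. The 17 include Cox4i2, described below, which passed the 10 TPM limit only through the double-knockout group, and without it 16 of 81 were higher. Macrophage marker sums were between 3468 and 3515 TPM in wildtype and between 2915 and 3190.5 TPM in the double knockout, with 8 of 9 at 1 TPM or more in both. Dendritic cell marker sums were between 1.00 and 1.89 TPM and between 6.00 and 8.80 TPM, where 0 and 1 of 6 reached 1 TPM, and the part of either list in these results was not tested. Without wildtype replicate 1 the number higher was 10, and with any other library left out it was 12 to 14. After scaling 7 were higher (6 without Cox4i2) and 6 lower (background 22% and 21%), and the authors' deposited table had 3 higher (2 without Cox4i2) and 7 lower (background 16.6% and 17.2%). Called higher on all 3 readings were, apart from Cox4i2, Sdha and Atp5if1, and called lower on all 3 were Uqcrq, Cox7a2l, Cox8a and Atp5mc1. By complex, 6 of 38 genes of complex I were higher and 0 lower, 1 of 4 of complex II higher, 3 and 1 of 9 of complex III, 2 and 2 of 12 of complex IV without Cox4i2, and 4 and 1 of 18 of complex V.

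**Figure D5:**
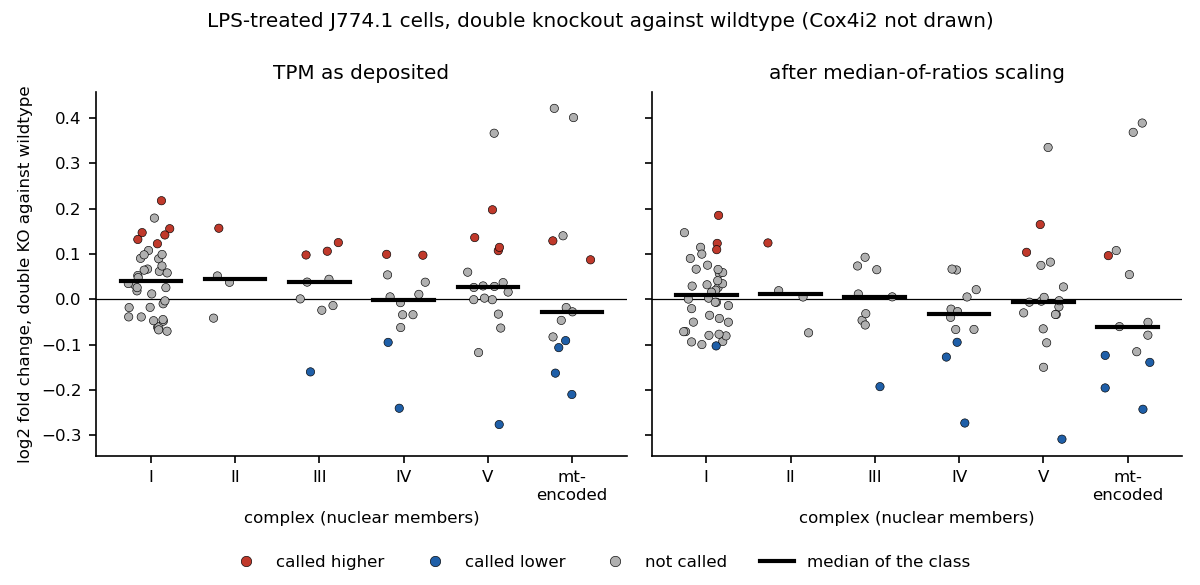
Log2 difference of each nuclear member, by complex, and of the mitochondrial genes between double-knockout and wildtype J774.1 cells, on the log2(TPM + 1) scale, as deposited (left) and after scaling (right); points are genes, red and blue mark calls and the bar is the median of each class. Cox4i2, at 2.72, is not drawn or counted in its class, and the other nuclear members lie between -0.28 and 0.37 as deposited.

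Cox4i2 (ENSMUSG00000009876) encodes the isoform of complex IV subunit 4 known from lung and from responses to low oxygen. It read 2.52, 1.86 and 1.95 TPM in wildtype and 20.4, 19.0 and 19.0 TPM in double-knockout cells, a log2 difference of 2.72 ± 0.098 (SE; limma adjusted p = 1.6e-07). All 3 double-knockout libraries were far above all 3 wildtype libraries. Cox4i2 passed the 10 TPM limit only through the double-knockout group, so its call follows in part from the way it was taken and supports nothing about the set. In BMDMs its mean was 0.0695 TPM. Cox4i1, the common isoform, read 675, 675 and 671 TPM and 674, 683 and 679 TPM (0.01 ± 0.022 (SE; limma adjusted p = 0.72)) and stayed far above Cox4i2 per transcript length.

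Among the other genes higher in the double knockout, Sdha, the flavoprotein of complex II, read 125, 128 and 131 TPM in wildtype and 146, 143 and 139.7 TPM (0.16 ± 0.033 (SE; limma adjusted p = 0.0057)). Atp5if1 read 384, 375 and 354 and 436, 413 and 428 TPM (0.20 ± 0.038 (SE; limma adjusted p = 0.0033)). Ndufs7, named above, read 117, 117 and 113 and 139, 128 and 137 TPM (0.22 ± 0.040 (SE; limma adjusted p = 0.0026)). None of these genes' groups overlapped, but the share of all genes without overlap in this comparison is not given here. Ndufa7, an accessory subunit, differed by 0.16, and Ndufs6, a zinc-binding accessory subunit, by 0.15, each called as deposited, and Ndufs6 was not called after scaling. Uqcrc2, a core protein of complex III, differed by 0.13 as deposited and was not called after scaling (0.09). The call of Uqcrc2 was also lost without replicate 1 or 2 of either group, and that of Ndufs6 without double-knockout replicate 1 or 3 or wildtype replicate 2 or 3 (limma adjusted p up to 0.094 and 0.13). Cyc1 (0.11) and Atp5f1a (0.11) were likewise called as deposited only, and Uqcrfs1 (0.04), Cox5a (-0.06), Ndufs1 (0.07), Ndufv1 (0.05), Sdhb (0.04) and Atp5f1b (0.00) were not called as deposited.

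The largest fall was that of Atp5mc1, 1 of the genes for the ring subunit c, from 156, 145 and 146 TPM to 131, 118 and 119.6 TPM (-0.28 ± 0.049 (SE; limma adjusted p = 0.0022)). Cox8a, the common isoform of the smallest complex IV subunit, read 549, 535 and 532 TPM in wildtype and 441, 464 and 463 TPM (-0.24 ± 0.030 (SE; limma adjusted p = 3.0e-04)). Uqcrq, a small complex III subunit, read 374, 355 and 391 and 331, 343 and 327 TPM (-0.16 ± 0.039 (SE; limma adjusted p = 0.011)). Cox7a2l differed by -0.09, the smallest of these falls, and its call held only with double-knockout replicate 1 left out or with all 6 libraries (limma adjusted p up to 0.11 without another). The 4 genes did not overlap between the groups, and the share of all genes that did not is not given here. The other ring subunit genes Atp5mc2 (0.37) and Atp5mc3 (0.00) were not called, and Atp5mc3, which encodes the same mature protein, read 652, 644 and 644 TPM in double-knockout cells.

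Of the 13 mitochondrial genes, 4 were lower and 2 higher in the double knockout as deposited, 4 and 1 after scaling, and 6 and 0 in the authors' deposited table. Of all genes 16.6% were lower and 25.4% higher as deposited, 21% and 22% after scaling, and 17.2% and 16.6% in the authors' deposited table. mt-Cytb was lowest, at 5524, 5350.4 and 5479 TPM in wildtype and 4819, 4540.1 and 4783 TPM in double-knockout cells (-0.21 ± 0.027 (SE; limma adjusted p = 4.0e-04)), with no overlap. The share of all genes without overlap is not given here. mt-Nd1 read 5274, 5063 and 5124 and 4669, 4492 and 4649.6 TPM (-0.16 ± 0.025 (SE; limma adjusted p = 9.3e-04)). mt-Nd2 and mt-Nd5 differed by -0.11 and -0.09. These 4 were called lower on both TPM scales and in the authors' deposited table. Without any 1 of the wildtype libraries mt-Nd5 was not called (limma adjusted p = 0.059, 0.077 and 0.082). The 2 higher genes were mt-Nd3 (0.13 ± 0.028 (SE; limma adjusted p = 0.0062)) and mt-Co1 (0.09 ± 0.018 (SE; limma adjusted p = 0.0056)), and only mt-Nd3 was called after scaling. mt-Cytb was the only member called in the same direction as deposited in the double knockout and in both knockdowns with vehicle. Its log2 differences were -0.23, -0.22 and -0.21, while with LPS, the condition of the J774.1 cells, the knockdowns gave 0.05 and -0.08 with no call. Near-identical nuclear copies of mitochondrial genes can take reads from them, and their part in these values was not tested.

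Several subunits have a second, tissue-restricted isoform, and these were low in both kinds of cell. Cox6a2, the muscle isoform of subunit 6A, had a mean of 1.23 TPM in BMDMs and 1.59 TPM in J774.1 cells. Cox6b2, the testis isoform, was at 1.79 TPM in BMDMs and listed at 0 in J774.1 cells. Cox7a1, the muscle and heart isoform, was at 5.19 and 3.52 TPM. Ndufa4l2, a hypoxia-induced paralogue of Ndufa4, was at 0.00549 and 0.0713 TPM. The common isoforms Cox6a1, Cox6b1, Cox7a2 and Cox8a were all members in both tables.

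The tables were normalised separately, so levels in J774.1 cells and BMDMs are set side by side with no test. With LPS, wildtype J774.1 cells had the higher mean than control siRNA BMDMs for 71 of 80 nuclear members, with a median ratio of 1.5, and for 11 of 13 mitochondrial genes, with a median ratio of 1.51. The share over all genes was not counted, so it cannot be said whether this is particular to these genes. The widest ratio was that of mt-Co2 (2969 ± 75.4 TPM against 311 ± 61.0 TPM; SD, n = 3), whose level varied between BMDM libraries. At the other end stood Ndufa13 (46.9 ± 1.37 TPM against 98.6 ± 5.88 TPM). All 9 complex III genes were higher in J774.1 cells (median ratio 1.64), and 3 of 4 in complex II (median ratio 1.08). For complexes I, IV and V it was 32 of 38, 11 of 12 and 16 of 17 nuclear genes (median ratios 1.47, 1.45 and 1.58).

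Genes that build or feed the complexes were counted from 6 lists, matched by symbol. With LPS in control siRNA cells, 26 of 36 assembly factors of the complexes were lower (72.2%) and 3 higher (8.33%), with a median of -0.38, beside 53.1% and 23.3% of all genes. After scaling 14 were lower and 5 higher, beside 35.7% and 36% of all genes. Tmem126b, a complex I assembly factor, read 8.16 ± 1.61 TPM with LPS and 24.3 ± 1.22 TPM with vehicle (SD, n = 3; log2 difference -1.48 ± 0.098, limma adjusted p = 4.4e-10), and Coa6, a copper-handling factor of complex IV, 10.9 ± 0.649 and 23.5 ± 3.82 TPM (log2 difference -1.03 ± 0.097, limma adjusted p = 4.1e-08). Of 77 mitochondrial ribosomal protein genes 48 were lower (62.3%) and 7 higher (median -0.25; 21 and 12 after scaling). Of 18 genes for mitochondrial DNA and RNA maintenance 10 were lower (55.6%) and 2 higher (median -0.27; 6 and 5 after scaling), with Tfam, which packages and transcribes that DNA, at 17.2 ± 4.30 against 29.9 ± 1.57 TPM (log2 difference -0.79 ± 0.21, limma adjusted p = 0.003). Of 18 genes of the tricarboxylic acid cycle and pyruvate dehydrogenase 10 were lower (55.6%) and 3 higher, and after scaling 4 and 7. Of 10 genes for mobile carriers and their feeders 6 were lower and 3 higher (3 and 4 after scaling), among them Gpd2, the glycerol-3-phosphate dehydrogenase that passes electrons to ubiquinone, at 55.9 ± 3.65 against 8.04 ± 0.926 TPM (log2 difference 2.66 ± 0.094, limma adjusted p = 8.9e-14), and Cycs, cytochrome c, at 29.0 ± 2.31 against 22.4 ± 1.55 TPM (log2 difference 0.36 ± 0.066, limma adjusted p = 9.6e-05). Gpd2 with vehicle and Tmem126b with LPS were under the limit of 10 TPM in these cells. Both passed it through groups where they are higher, so their calls follow in part from that. Of 8 transcriptional regulators of these genes 7 were higher and 1 lower on both scales, with Hif1a at log2 difference 1.04 ± 0.048, limma adjusted p = 2.9e-12 and Myc at log2 difference -0.91 ± 0.093, limma adjusted p = 1.1e-07.

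In the double knockout 12 of 49 assembly factors were higher (24.5%) and 5 lower (10.2%), beside 25.4% and 16.6% of all genes, and after scaling 11 and 6. Cox17, the chaperone that brings copper to complex IV, stood at 449 ± 15.1 TPM against 249 ± 6.15 TPM in wildtype (SD, n = 3; log2 difference 0.85 ± 0.034, limma adjusted p = 2.9e-07), and Cox15, which makes its heme a, at 31.5 ± 0.464 against 21.6 ± 1.08 TPM (log2 difference 0.52 ± 0.053, limma adjusted p = 9.0e-05). Of 27 maintenance genes 8 were higher (29.6%) and 4 lower (7 and 4 after scaling), with Hsd17b10, a subunit of mitochondrial RNase P, at 92.6 ± 0.295 against 26.4 ± 2.03 TPM (log2 difference 1.78 ± 0.056, limma adjusted p = 7.6e-08). Of 79 ribosomal protein genes 10 were higher (12.7%) and 6 lower, of 18 tricarboxylic acid cycle genes 5 and 1, of 15 carrier genes 3 and 0, and of 8 regulators 0 and 4. After scaling these counts were 7 and 7, 2 and 2, 2 and 0, and 0 and 4.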

How the data were processed

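RNA-seq libraries from 18 BMDM samples (6 groups of 3, labelled replicates 1, 3 and 4) and 6 J774.1 samples (2 groups of 3) were compared. The authors deposited TPM per gene: per the file headers the BMDM values came from Salmon on mm39, and per the submitters' processing notes Salmon 1.9.0, FastQC, DESeq2 1.44.0 and R 4.4.1 were used. The J774.1 headers name no build, and the notes list mm39, GRCm38 and GRCm39. Also deposited by the authors are DESeq2 mean normalized counts (a signal per gene, not used here for tests), log2 fold changes and p-values. These p-values were used only where the authors' deposited table is named. TPM give no depth, so it is unknown. No per-sample column was left unused (0).

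Differences were fitted here on log2(TPM + 1) over genes whose mean reached 10 TPM, with limma 3.58.1 in R 4.3.3 (empirical Bayes with trend and robust estimation, Benjamini-Hochberg over all genes of the fit, threshold 0.05). The 18 BMDM libraries shared 1 fit and the 6 J774.1 libraries had their own, which gave 10 comparisons. Other steps used Python 3.11.15, pandas 2.3.3 and numpy 2.4.6. In simulated data with known changes of 1 on the log2 scale the fit recovered 99% for LPS in control siRNA BMDMs (7918 genes) and 99% for the double knockout (7782 genes). For changes of 0.25 it recovered 47% and 38%, with 9 and 3 false calls. Each size was given to 100 genes, far fewer than were called in the real comparisons, and the simulated library totals were not fixed. The shares recovered and the false calls may therefore differ in the real data.

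Named genes were the mitochondrial genes, core subunits, isoform pairs, the largest called changes per complex and per comparison, members called alike in the knockout and a knockdown, and the highest and lowest members. Genes outside this rule are said to be so or serve a list. Whether same-numbered libraries pair was checked from the correlation of their deviations from group means. Among the comparisons made, all 3 pairs exceeded 0.1 only for Ctbp2 against control siRNA in LPS. There, and for the mitochondrial genes with vehicle, the blocked result is given beside the main one. All 3 pairs of Ctbp1 siRNA with vehicle and Ctbp2 siRNA with LPS, groups not compared, also exceeded it (0.193, 0.274 and 0.312). An item the rule covers is not reported here. The members and lists were chosen with earlier results of these data known. Alternatives were median-of-ratios scaling, other filters and pseudocounts, a nuclear-only TPM, the groups compared alone, plain eBayes, a replicate block and each library left out in turn.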

Additional observations from a re-analysis of the deposited data

Results flagged for a closer look

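mt-Nd6, the complex I subunit gene on the other strand of mitochondrial DNA, read lower with LPS with control siRNA and higher with Ctbp1 siRNA, each without overlap of libraries. With control siRNA it read 227, 252 and 222 TPM with vehicle and 157, 182 and 167 TPM with LPS, a log2 difference of -0.47 ± 0.18 (SE; limma adjusted p = 0.028), and every LPS library was below every vehicle library. After median-of-ratios scaling the difference was -0.26 with control siRNA (limma adjusted p = 0.21) and 0.35 with Ctbp1 siRNA (limma adjusted p = 0.097), and neither was called. With Ctbp1 siRNA it read 177, 178 and 197 TPM with vehicle and 202, 204 and 214 TPM with LPS, a log2 difference of 0.17 ± 0.18 (SE; limma adjusted p = 0.41), and every LPS library was above every vehicle library. The difference between these responses was 0.64 ± 0.26 (SE) and did not pass (limma adjusted p = 0.66, unadjusted p = 0.025).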

How the results depend on the processing

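Scaling changed the most. With median-of-ratios scaling the nuclear members lower with LPS numbered 12, 17 and 17 (control, Ctbp1 and Ctbp2 siRNA) and those higher 22, 16 and 14, where the values as deposited gave 54, 56 and 62 lower and 1, 0 and 1 higher. Mitochondrial members lower with LPS numbered 1, 0 and 0 and those higher 2, 8 and 7. With vehicle, 2 mitochondrial members were lower with Ctbp1 siRNA and 1 with Ctbp2 siRNA, with LPS 1 nuclear member was lower with Ctbp2 siRNA, and in the double knockout 7 nuclear and 1 mitochondrial members were higher. The scaled nuclear sums were 13881, 14359 and 14079 TPM with vehicle and 14442, 14525 and 14319 TPM with LPS in the same order of siRNA, and 20868 and 20679 TPM in wildtype and double-knockout J774.1 cells. The scaled mitochondrial sums were 45471, 43232 and 42311 TPM with vehicle and 46676, 46529 and 45588 TPM with LPS. Scaling turned the sign of 39, 29 and 45 of 93 members with LPS (12, 10 and 18 of them called after scaling) and of 12 of 95 in the double knockout (0 called). Among the genes named these included, with control siRNA, the LPS differences of Atp5f1a (0.18), Cox4i1 (0.0033), Ndufa4 (0.078), Sdhc (0.012), mt-Atp8 (0.14), mt-Nd2 (0.0045), mt-Nd3 (0.18), mt-Nd4 (0.015) and mt-Nd5 (0.041). With Ctbp1 siRNA they were those of Atp5f1a (0.15), Cox4i1 (0.020), Ndufs1 (0.015), mt-Co1 (0.10), mt-Nd3 (0.044) and mt-Nd5 (0.17), with Ctbp2 siRNA those of Atp5f1a (0.17), Cox4i1 (0.018), Cyc1 (0.098), Ndufs1 (0.065), mt-Atp8 (0.10), mt-Co1 (0.087) and mt-Nd3 (0.036), and in the double knockout that of Cox4i1 (-0.022). The mean of log2 values in place of summed TPM gave ratios of 3.75, 3.51 and 3.62 with vehicle, 3.73, 3.76 and 3.72 with LPS, and 3.95 and 3.91 in J774.1 wildtype and double knockout, as it weighs all genes alike.

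With TPM of nuclear genes only, 4 nuclear members were lower with Ctbp2 siRNA in LPS, and with control siRNA the LPS differences of Cox5a and Uqcrfs1 were -0.0019 and -0.0055. Mitochondrial members lower with vehicle numbered 1 with Ctbp2 siRNA at a limit of 1 TPM. With no limit they numbered 0 with Ctbp1 and 1 with Ctbp2 siRNA, with LPS 1 nuclear member was lower with Ctbp2 siRNA, and in the double knockout 11 nuclear members were higher. Fitting only the groups compared gave 0 mitochondrial members lower with Ctbp1 siRNA in vehicle and 0 nuclear members lower with Ctbp2 siRNA in LPS. With LPS it gave 0, 1 and 2 nuclear members higher, and 1 mitochondrial member higher with Ctbp1 siRNA. Plain eBayes gave 0 mitochondrial members lower with either siRNA in vehicle, 0 nuclear members higher with LPS and Ctbp2 siRNA, and in the double knockout 8 nuclear members higher and 1 mitochondrial member higher and 2 lower. The cause of these changes was not tested.

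Same-numbered libraries did not deviate together throughout: of 45 same-numbered pairs of BMDM libraries 21 had a correlation over 0.1 (median 0.0899), against 4 of 90 differently numbered pairs (median -0.0295), and of 3 J774.1 pairs 1 did. Of the comparisons made here, that of Ctbp2 with control siRNA in LPS was the only one where all 3 pairs did. The main fit was unblocked throughout. This cutoff is a choice: control against Ctbp1 siRNA in vehicle had a median correlation of 0.148, above the 0.111 of that comparison. Whether the numbers pair the samples elsewhere was not settled. With the replicate number as a block, mitochondrial members lower with vehicle numbered 2 with Ctbp1 and 4 with Ctbp2 siRNA, those lower with LPS 2 with Ctbp1 and 5 with Ctbp2 siRNA, and nuclear members lower with Ctbp2 siRNA in LPS 4. Shares of all genes called in the blocked fit are not given here.

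Leaving out 1 library at a time, nuclear members higher with LPS numbered 0 to 2, 0 to 1 and 0 to 1 in the 3 siRNA groups. Mitochondrial members lower with LPS numbered 1 to 2 with Ctbp1 siRNA, where 0 to 1 were higher, and 2 to 5 with Ctbp2 siRNA. With vehicle, 0 to 1 nuclear members were higher and 0 to 2 mitochondrial members lower with Ctbp1 siRNA, and 0 to 2 nuclear and 0 to 4 mitochondrial members were lower with Ctbp2 siRNA. With LPS 1 to 5 nuclear members were lower with Ctbp2 siRNA. The Ctbp1 interaction called 0 to 1 mitochondrial members, and 10 to 14 nuclear members were higher in the double knockout, 10 of them without wildtype replicate 1. Among LPS differences with control siRNA, Ndufa4 was not called without replicate 3 of either group (limma adjusted p up to 0.17), nor Sdhc without LPS replicate 1 or vehicle replicate 3 (up to 0.084), nor mt-Nd5 without vehicle replicate 1 or 3 or LPS replicate 1 (up to 0.066). With Ctbp1 siRNA, the LPS calls of Ndufs1 and Ndufv1 were lost without LPS replicate 1, and that of Ndufv1 also without vehicle replicate 4 (limma adjusted p up to 0.13). With Ctbp2 siRNA, that of Ndufs1 was lost without LPS replicate 1 or vehicle replicate 3 (up to 0.060). In the double knockout the call of Atp5f1a was lost without knockout replicate 2 or 3 or wildtype replicate 1 or 3 (up to 0.11), and that of Cyc1 without wildtype replicate 1 (0.051). Small differences changed sign when 1 library was left out. With control siRNA and LPS these were Atp5f1a (-0.064 to 0.0087), Cox5a (-0.0047 to 0.015), Cox6a1 (-0.042 to 0.082), Uqcrfs1 (-0.029 to 0.026) and mt-Nd3 (-0.063 to 0.0092). With Ctbp1 siRNA and LPS they were mt-Nd2 (-0.016 to 0.058), mt-Nd4 (-0.025 to 0.038) and mt-Nd5 (-0.056 to 0.0074), and in the double knockout Atp5f1b (-0.026 to 0.034) and Atp5mc3 (-0.0066 to 0.0060). The depth of the libraries is unknown, which limits what can be said of the low members.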

Other observations

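Of 8 tested regulators known to act on nuclear subunit genes 7 were higher with LPS in control siRNA BMDMs, where 23.3% of all genes were. Those described here were picked after their values were seen. The exception was Myc, which read 25.6 ± 2.51 TPM (SD, n = 3) with vehicle and 13.1 ± 1.33 TPM with LPS (log2 difference -0.91), and Ppargc1b, too low to be tested, read 1.66 ± 0.225 and 1.24 ± 0.25 TPM. Esrra, the estrogen-related receptor alpha, stood at 46.6 ± 0.756 TPM (SD, n = 3) with vehicle and 72.6 ± 2.36 TPM with LPS (log2 difference 0.63 ± 0.046 (SE), limma adjusted p = 1.6e-09). In the same comparison the log2 differences of Nrf1, nuclear respiratory factor 1, and of Gabpa and Gabpb1, the subunits of the ETS factor GABP, were 0.48, 0.26 and 0.73 (limma adjusted p = 6.0e-05, 0.0018 and 2.3e-06). Pprc1, a co-activator related to PGC-1, was at 0.67 (limma adjusted p = 3.9e-07). In both J774.1 groups Esrra was lower than in any BMDM group, at 29.2 ± 1.42 TPM in wildtype and 28.7 ± 1.98 TPM in the double knockout, in a table normalised separately. Nrf1, Gabpa, Gabpb1, Pprc1 and Ppargc1b went the other way, with a higher mean in both J774.1 groups than in any BMDM group. In wildtype J774.1 cells these means were 38.0, 58.0, 35.5, 86.1 and 4.17 TPM. Myc lay within the range of the BMDM group means.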
